A study of Mus musculus with 10 samples.

Results

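The proteasome degrades proteins that carry ubiquitin, and its subunits are encoded by a family of genes whose names begin with Psm. Members of this family were taken by name, as every Psma, Psmb, Psmc, Psmd, Psme, Psmf or Psmg gene with a number and at least 100 counts summed over the 10 samples, leaving out the interferon-inducible Psmb8 and Psmb9. Of 46 names that matched, 45 passed, among 55421 gene identifiers in the count table and 22449 genes tested. The gene left out for low counts was Psmb11, with 6 counts, and the member nearest to the limit was Psma8, with 144. The 45 members comprised 8 genes of the alpha ring, 8 of the beta ring, 9 of the base, 8 of the lid, 5 activators and inhibitors and 7 assembly chaperones, and all 45 were tested.

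Poly(A) RNA of whole liver was sequenced from 10 male mice, to ask how loss of the histone variant H3.3 changes the liver transcriptome. The KO group held 4 mice that were H3f3a fl/fl and H3f3b fl/fl, so that Cre removes both H3.3 genes, and that received AAV8 Tbg-Cre. AAV8 is a viral vector with a preference for liver, and Tbg is a promoter active in hepatocytes, so other liver cells were not meant to lose H3.3. The WT Cre controls were 3 wild-type mice given the same virus, and the MCS controls were 3 floxed mice given AAV8 Tbg-MCS, which carries no Cre. Injection was at 6 months of age and the livers followed 3 weeks later in all groups, so virus was shared by all groups, Cre by KO and WT Cre, and the floxed alleles by KO and MCS. Titles give H3f3a and H3f3b as the floxed genes and were followed here, although the genotype field reads HIRA.

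The libraries held 20862860 to 26096141 counts in the controls and 14998426 to 23619487 in KO, with KO 1 the shallowest. Expression is given as CPM, which is counts divided by a library size adjusted with TMM, where TMM is a scaling that assumes that most genes do not change. Both targeted genes were lower in every KO liver, with 16 to 19 CPM against 59.9 to 63.7 CPM for H3f3a and 39.8 to 56.7 CPM against 136 to 204 CPM for H3f3b. Hira had 6.26 to 6.68 CPM in KO and 5.48 to 8.71 CPM in the controls.

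The proteasome is built from a core particle and caps that open it. The core is a barrel of stacked rings, with alpha rings that gate the entry and beta rings that cut proteins at the active sites of Psmb5, Psmb6 and Psmb7. The regulatory cap has a base, where the ATPases Psmc1 to Psmc6 unfold substrates, and a lid, where Psmd14 removes ubiquitin. In immune cells and under interferon, Psmb8, Psmb9 and Psmb10 take the places of Psmb5, Psmb6 and Psmb7 to form the immunoproteasome, and Psme1 with Psme2 form an alternative cap. When proteasome activity falls short, the transcription factor Nfe2l1 is known to raise many of these genes together through antioxidant response elements. Hepatocytes use the proteasome to clear damaged proteins and proteins rejected from the endoplasmic reticulum.

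Sequences just before the start sites were examined for that reason, as these members are known to be regulated together. RefSeq promoters (GRCm38.p6, 250 bases before to 50 after the start site) were matched for 37 of the 45 members. The core of the antioxidant response element, searched as TGACNNNGC on both strands, was found in 6 members, or 16.2%, against 14.0% of 27025 genes with a promoter of the same length. The 6 windows are printed 5′ to 3′ on the strand of the gene, with the match in capitals.
Psmb5, chr14:54618024-54618052, minus strand: cgtgaagttgTGACGTCGCggcgttgcca
Psmb6, chr11:70525338-70525366, plus strand: ctaaagagagTGACGGAGCgctttacgac
Psmc6, chr14:45329587-45329615, plus strand: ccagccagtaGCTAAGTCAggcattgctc
Psmd12, chr11:107479278-107479299, plus strand: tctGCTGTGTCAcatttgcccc
Psme4, chr11:30771758-30771786, plus strand: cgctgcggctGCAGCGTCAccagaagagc
Psmd9, chr5:123228149-123228177, plus strand: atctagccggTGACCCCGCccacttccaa
Of the 16 members called lower in KO that had a promoter, 2 held the match, as did 0 of the 4 called higher and 4 of the other 17. Part of an interferon-stimulated response element, searched as GAAANNGAA on both strands, was found in 7 members, or 18.9%, against 9.76% of all genes. It was in 4 of the 16 members called lower, 1 of the 4 called higher and 2 of the other 17, so the shares in the lower and the higher members were equal. The 7 windows are printed in the same way.
Psmb3, chr11:97703262-97703290, plus strand: acagtgacttTTCACTTTCcgctttccat
Psmb4, chr3:94886943-94886971, minus strand: aaaggaccacTTCCGTTTCcggtgacgct
Psmc2, chr5:21786729-21786757, plus strand: gtggggaagaGAAAGGGAAgacaccagcg
Psmd4, chr3:95042675-95042703, minus strand: taaccaacctTTCCATTTCtgtggcgcct
Psme1, chr14:55578494-55578522, plus strand: gagctgtgctTTCGCTTTCccttcccgct
Psmd9, chr5:123228021-123228049, plus strand: gggacagaatGAAAAAGAAaggaatgaac
Psmg4, chr13:34162969-34162997, plus strand: gcgcgcatctGAAAGTGAAagagcgttcc
The CCAAT box, searched as CCAAT on both strands, was found in 12 members (32.4%, against 41.1%), and the gamma-activated site, searched as TTCNNNGAA, which reads alike on both strands, in 2 (5.41%, against 9.55%). The 4 motifs were chosen after the fits had been seen, and the shares are descriptions without a test.

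Levels per length differed widely between members. Per kilobase of exon, the controls had the highest level in Psma6, with 82.1 ± 5.25 CPM per kilobase (SD, n = 6), followed by Psmb5 with 77.5 ± 5.33 and Psmb6 with 65.9 ± 5.30. Psma6 and Psmb5 differed by less than the spread between livers. The lowest was Psma8, a core subunit known from testis, with 0.264 ± 0.101, below the chaperones Psmg3 (4.38 ± 0.530) and Psmd9 (5.17 ± 0.794). The 7 chaperones and the inhibitor Psmf1 lay below most members of the particle itself. The length used was that of all annotated exons of a gene merged, not of the transcripts present in liver. It ran from 555 bases in Psmg4 to 8382 in Psme4, and was 1234 in Psma6, 899 in Psmb5 and 7248 in Psmd9. The order of the members thus depends in part on the annotation. Together the 45 members took 0.350% ± 0.0214 (SD, n = 6) of all control counts and 0.358% ± 0.0110 (SD, n = 4) of those in KO, and the ranges overlapped.

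**Figure D1:**
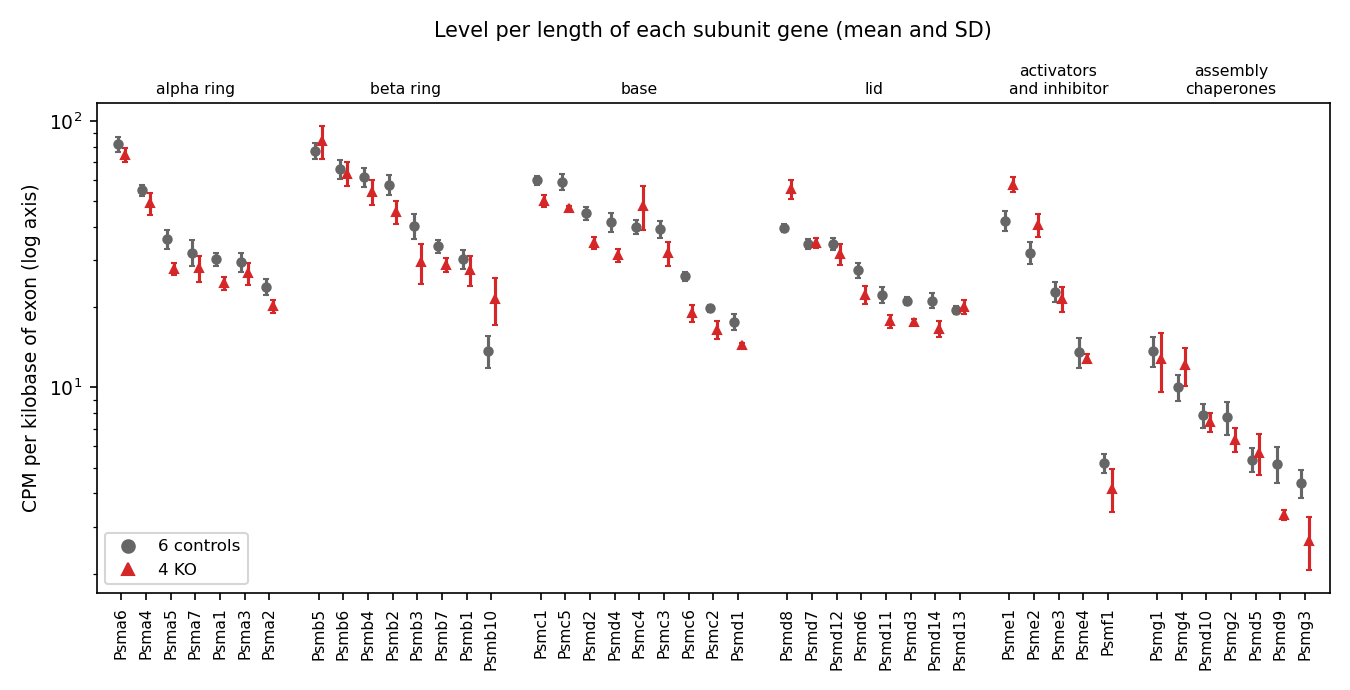
Mean CPM per kilobase of exon on a log axis for each member except Psma8, by group, in 6 controls (circles) and 4 KO livers (triangles), with bars of 1 SD. Levels span from 4.38 (Psmg3) to 82.1 (Psma6) in the controls, and most triangles lie slightly below their circles, while Psmb10, Psmd8, Psme1 and Psme2 are among those above.

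In KO, with TMM scaling, a small number of members rose and a larger number fell by little. The members that rose were the immunoproteasome subunit Psmb10, the lid subunit Psmd8 and the activators Psme1 and Psme2. With TMM, 4 members were higher at an edgeR adjusted p under 0.05, where 19.7% of all genes tested were higher, and 20 were lower, where 16.6% of all genes were lower. The share of members called lower was thus above the background and the share called higher below it. The median log2 fold change of the 45 members was -0.20, against 0.00 over all genes, and 35 had a negative sign. No member reached an absolute log2 fold change over 1 with an adjusted p under 0.05, which 18.7% of all genes did, and the farthest from 0 was Psmg3 at -0.73. All KO livers lay above all controls in 3 members (Psmb10, Psmd8 and Psme1), where 12.5% of all genes did, and below them in 18, where 12.0% did. In bulk liver, fewer cells of a type and less RNA per cell cannot be told apart.

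**Figure D2:**
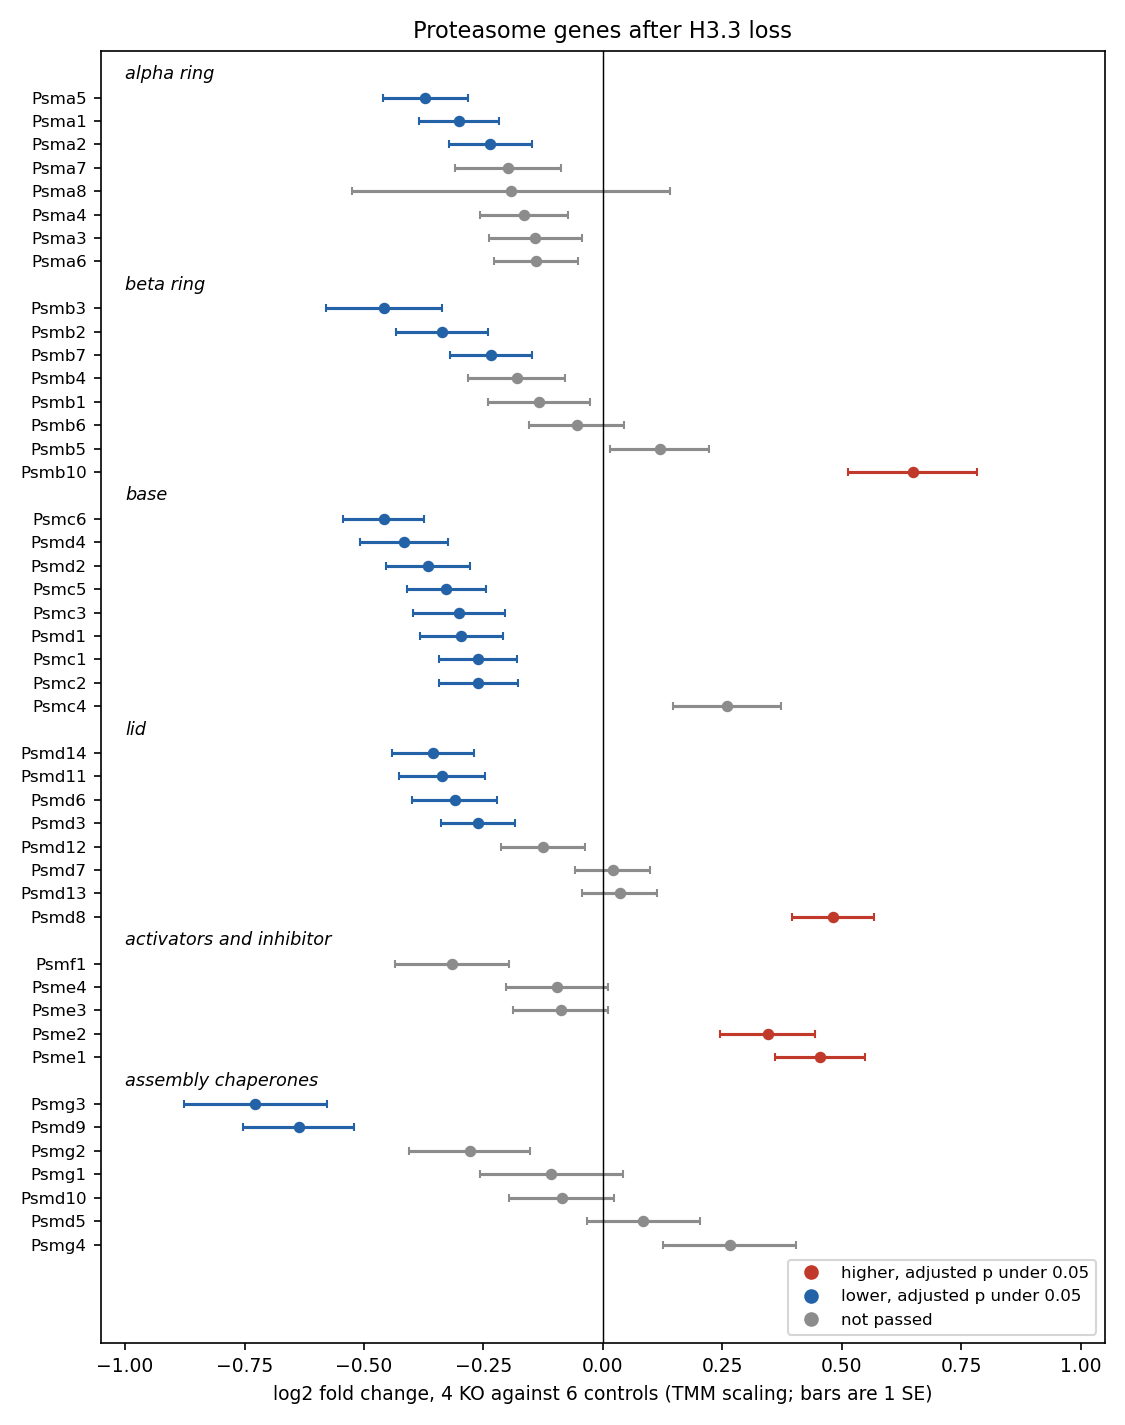
Log2 fold change of each member in 4 KO livers against 6 controls with TMM scaling, by group, with bars of 1 SE; red and blue mark an adjusted p under 0.05. In the base 8 of 9 members are blue, while the 4 red points are Psmb10, Psmd8, Psme1 and Psme2, between 0.34 and 0.65. Under library size only, 3 of the blue members stay called.

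The count of lower members depended on how the libraries were scaled. With library size only, 7 members were higher, where 25.1% of all genes were, and 3 were lower, where 9.68% were. This scaling moved the median of all genes from 0.00 to 0.17, and the median of the members from -0.20 to -0.02. Leaving the 50 most abundant genes out of the library size gave 5 higher and 5 lower, with medians of -0.06 for the members and 0.13 for all genes. DESeq2 size factors and upper quartile scaling each gave 4 higher and 18 lower. A scaling shifts all genes alike, so the distance from the median of all genes to that of the members, -0.19 with TMM, could not differ much between these 5 scalings. It was -0.24 with no minimum count, -0.17 with the filterByExpr filter, -0.08 on log2(FPKM + 1) and -0.15 on log2(FPKM + 0.1). Over the effective library size, KO against controls, TMM stood 0.18 above the plain library size on the log2 scale. FPKM values, deposited beside the counts, gave 7 higher and 2 lower with a pseudocount of 1 as well as with 0.1. Among these alternatives, the share of all genes called was computed for library size only. The other counts thus cannot be set against a background.

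Under all 5 scalings, 4 members were called higher (Psmb10, Psmd8, Psme1 and Psme2), where 19.3% of all genes were, and 3 were called lower (Psmc6, Psmd9 and Psmg3), where 9.68% were. This count was added after the fits had been seen. No member was called in opposite directions, and the 20 members called lower with TMM had a negative value in all 5. The sign changed between scalings in 10 members, was negative in 25 and positive in 10. In single livers with TMM, the median over the members stood at -0.08 to 0.06 on the log2 scale relative to the control mean in the controls, and at -0.12 in KO 1, -0.26 in KO 2, -0.20 in KO 3 and -0.27 in KO 4. With library size only, the controls ran from -0.15 to 0.13 and KO from -0.09 to 0.01, and the groups overlapped.

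**Figure D3:**
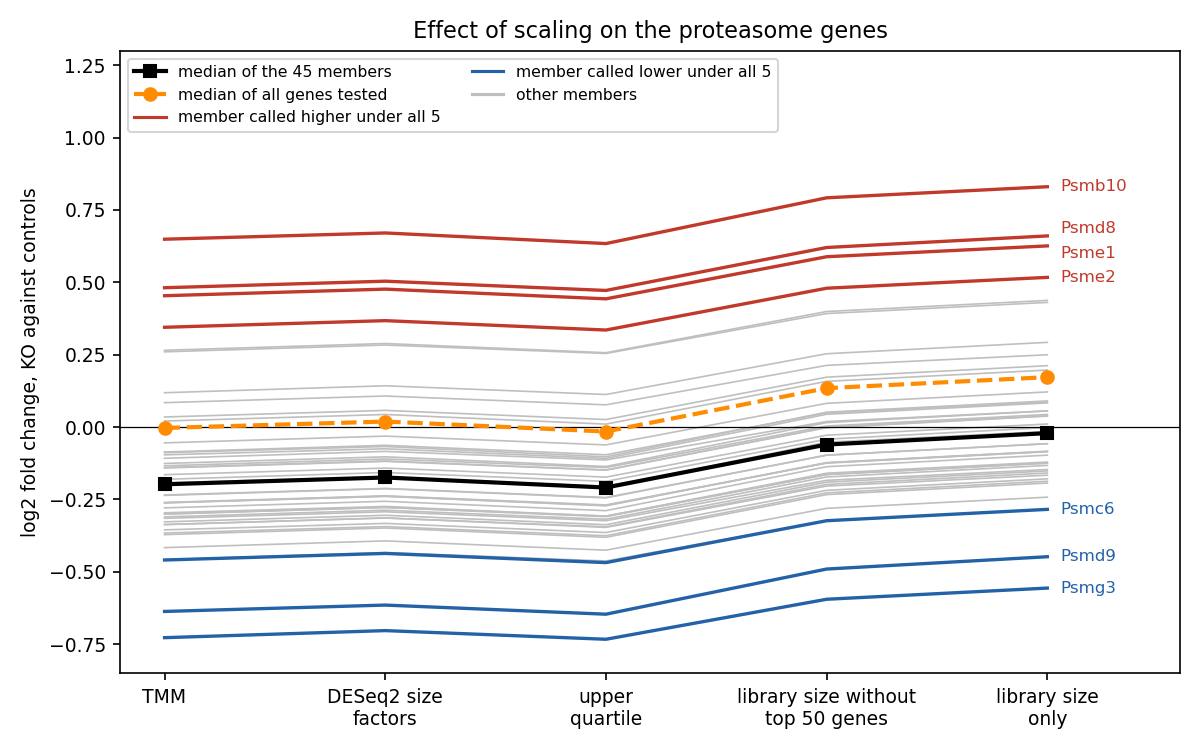
Log2 fold change of the 45 members, KO against controls, under 5 scalings of the libraries (thin lines), with the medians of the members (black squares) and of all 22449 genes (orange circles). Both medians move up together, from -0.20 to -0.02 and from 0.00 to 0.17, and 7 members keep their call under all 5.

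The number of lower members also depended on single libraries. With TMM it ran from 11 to 21 when each liver was left out in turn, with 12 without KO 2 and 11 without KO 3. No share of all genes was computed for these fits, so whether the members differ from the background in this was not tested. The median of the members ran from -0.27, without KO 1, to -0.16.

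In the alpha ring, whose subunits gate the entry to the core, 3 of 8 members were lower with TMM (Psma1, Psma2 and Psma5), none was higher, and none was called lower with library size only. Psma5 had 45.3, 53.6 and 41.9 CPM in WT Cre controls 1 to 3, 48.6, 49.2 and 47.2 CPM in MCS controls 1 to 3, and 38.8, 34.0, 37.0 and 37.5 CPM in KO 1 to 4. Every KO liver lay below every control. The log2 fold change was -0.37 (SE 0.0885, adjusted p = 0.00543 by edgeR), and -0.19 with library size only (adjusted p = 0.146 by edgeR). Psma1 ran from 85 to 98.1 CPM in the controls and from 69.7 to 78.9 CPM in KO, without overlap. Its log2 fold change was -0.30 (SE 0.0839, adjusted p = 0.0133 by edgeR), with an adjusted p = 0.0548 by edgeR without KO 2 and 0.0531 without KO 3. The highest values in this ring were those of Psma3 and Psma6, with -0.14 each (adjusted p = 0.290 by edgeR and 0.237), and both turned to 0.04 with library size only. Psma8 had -0.19 with an SE of 0.332, so no difference was detectable at its depth.

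In the beta ring, which holds the active sites, Psmb10 was higher and Psmb2, Psmb3 and Psmb7 were lower with TMM, while with library size only the last 3 were not called and Psmb5 was higher. Psmb10 (ENSMUSG00000031897.9, minus strand of chromosome 8 at 105935735 to 105938444, mm10) encodes the inducible subunit that takes the place of Psmb7. It had 20.3, 26 and 21.2 CPM in WT Cre controls 1 to 3 and 22.2, 28.8 and 22.0 CPM in MCS controls 1 to 3. In KO 1 to 4 it had 28.9, 45.2, 39.9 and 32.7 CPM. KO 1 lay just above the highest control, MCS 2, and the other 3 were clearly apart. On the log2 scale the change was 0.65 (SE 0.135, adjusted p = 0.00234 by edgeR), between 0.54 and 0.87 over the alternatives, and it passed the test in all 21.

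The standard catalytic subunits did not rise with it under TMM. Psmb5, which cuts after hydrophobic residues, had 61.9 to 74.1 CPM in the controls and 89.8, 63.9, 72.5 and 76.6 CPM in KO 1 to 4, with overlap. Its log2 fold change was 0.12 (SE 0.103, adjusted p = 0.404 by edgeR), and 0.29 with library size only (adjusted p = 0.0494 by edgeR). Psmb6, which cuts after acidic residues, ran from 109 to 135 CPM in the controls and from 110 to 137 CPM in KO, with a log2 fold change of -0.05 (adjusted p = 0.709 by edgeR) that turned to 0.12 with library size only. Psmb7, which cuts after basic residues, had 109 to 126 CPM in the controls and 94.1 to 108 CPM in KO. It was just past the threshold, at -0.23 (SE 0.0865, adjusted p = 0.0486 by edgeR), and was no longer called in 17 of 21 alternatives, among them the omission of any liver other than KO 1, where the edgeR adjusted p ran up to 0.159. Nek6, which overlaps Psmb7 on the other strand, was higher in KO by 0.81 on the log2 scale (adjusted p = 1.96e-05 by edgeR).

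Psmb3 and Psmb2, ring subunits without a cutting site of their own, were the lowest. Psmb3 had 78.5 to 105 CPM in the controls and 85.2, 62.0, 61.6 and 62.3 CPM in KO 1 to 4, so KO 1 stood among the controls and the other 3 below them. Its log2 fold change was -0.46 (SE 0.121, adjusted p = 0.00985 by edgeR), and -0.28 with library size only (adjusted p = 0.0716 by edgeR). Psmb2 had 61.6 to 76.6 CPM in the controls and 61.6, 55.8, 53.3 and 49.1 CPM in KO 1 to 4, where KO 1 stood level with the lowest control. The log2 fold change was -0.34 (SE 0.097, adjusted p = 0.0156 by edgeR), with 0.0543 without KO 3.

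The base was the group with the most members lower, at 8 of 9 with TMM and a median log2 fold change of -0.30, but with library size only Psmc6 alone was lower and Psmc4 was higher. Psmc6 (ENSMUSG00000021832.8, plus strand of chromosome 14 at 45329788 to 45349705) is an ATPase of the unfolding ring. It had 91.4, 96.0 and 90.5 CPM in WT Cre controls 1 to 3, 85.4, 91.4 and 94.4 CPM in MCS controls 1 to 3, and 73.1, 66.9, 61.0 and 65.4 CPM in KO 1 to 4. Every KO liver lay below every control. KO differed by -0.46 on the log2 scale (SE 0.0842, adjusted p = 0.00102 by edgeR), and its call was lost with FPKM values alone among 21 alternatives, where limma gave an adjusted p of up to 0.136. Psmd4, a receptor for ubiquitin chains, had 107 to 129 CPM in the controls and 84.2 to 94.9 CPM in KO, with a log2 fold change of -0.42 (SE 0.0922, adjusted p = 0.00348 by edgeR) that was -0.24 with library size only (adjusted p = 0.0810 by edgeR).

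The remaining base members called lower were the ATPases Psmc1, Psmc2, Psmc3 and Psmc5 and the scaffolds Psmd1 and Psmd2, with log2 fold changes of -0.37 to -0.26. Psmc2 had 95.3 to 104 CPM in the controls and 77.1 to 91.3 CPM in KO. Its value of -0.26 (SE 0.0829, adjusted p = 0.0257 by edgeR) was no longer called without WT Cre 2 (0.0554), WT Cre 3 (0.0557), KO 2 (0.1) or KO 3 (0.119). Psmc4 stood apart from the other ATPases, with 81.8 to 95.0 CPM in the controls and 131, 97.4, 102 and 85.2 CPM in KO 1 to 4. Its log2 fold change of 0.26 (SE 0.113) did not pass with TMM (adjusted p = 0.0901 by edgeR), but did with library size only, at 0.43 (adjusted p = 0.00813 by edgeR), and without KO 4, at 0.34 (adjusted p = 0.0324 by edgeR).

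In the lid, Psmd8 rose and 4 of 8 members fell with TMM (Psmd3, Psmd6, Psmd11 and Psmd14), of which none was called lower with library size only. Psmd8 (ENSMUSG00000030591.17, minus strand of chromosome 7 at 29174188 to 29180701) is the subunit known to join the lid last. It had 116, 125 and 122 CPM in WT Cre controls 1 to 3, 120, 119 and 128 CPM in MCS controls 1 to 3, and 175, 151, 171 and 183 CPM in KO 1 to 4. All KO livers lay well above all controls. The log2 fold change was 0.48 (SE 0.0863, adjusted p = 0.000875 by edgeR), between 0.44 and 0.67 over 21 alternatives, all past the test.

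Psmd14, the deubiquitinase of the lid, had 54.9 to 64.4 CPM in the controls and 51.1, 43.8, 45.5 and 46.5 CPM in KO 1 to 4, without overlap. Its log2 fold change was -0.36 (SE 0.0856, adjusted p = 0.00583 by edgeR), and -0.18 with library size only (adjusted p = 0.161 by edgeR). Psmd7, its partner in the lid, had 73.5 to 83.4 CPM in the controls and 76.6 to 83.8 CPM in KO, with a value of 0.02 (adjusted p = 0.864 by edgeR). Psmd11, a scaffold subunit of the lid, had 131 to 152 CPM in the controls and 107 to 122 CPM in KO, with -0.34 (SE 0.0895, adjusted p = 0.0103 by edgeR), and -0.17 with library size only (adjusted p = 0.259 by edgeR). Psmd13 had 0.03 (SE 0.0789, adjusted p = 0.768 by edgeR), and Sirt3, which overlaps it on the other strand, had a log2 fold change of -0.89 (adjusted p = 0.0004 by edgeR).

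Among the activators, Psme1 and Psme2 rose, while Psme3, Psme4 and the inhibitor Psmf1 did not pass. Psme1 (ENSMUSG00000022216.17, plus strand of chromosome 14 at 55578123 to 55581529), whose promoter window is printed above, had 94.1, 103 and 91.6 CPM in WT Cre controls 1 to 3, 95.1, 97.1 and 78.7 CPM in MCS controls 1 to 3, and 129, 133, 132 and 116 CPM in KO 1 to 4. All KO livers lay above all controls. This was a log2 change of 0.45 (SE 0.094, adjusted p = 0.00226 by edgeR). Emc9, which overlaps it on the other strand with 0.200 times its counts, had a log2 fold change of -0.57 (adjusted p = 0.0132 by edgeR). Psme2 (ENSMUSG00000079197.10, minus strand of chromosome 14 at 55587441 to 55591113) encodes the partner of Psme1 in the same cap. It had 49.5, 61.9 and 58.0 CPM in WT Cre controls 1 to 3, 57.0, 62.2 and 51.6 CPM in MCS controls 1 to 3, and 77.4, 76.2, 73.1 and 61.5 CPM in KO 1 to 4. KO 4 lay within the controls. The log2 fold change was 0.34 (SE 0.0994, adjusted p = 0.0157 by edgeR), and both genes passed in all 21 alternatives.

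Psme3 and Psme4, nuclear activators that are not tied to interferon, had log2 fold changes of -0.09 (adjusted p = 0.532 by edgeR) and -0.10 (adjusted p = 0.527 by edgeR), and with library size only both turned to values above 0. Psme3 ran from 60.2 to 75.3 CPM in the controls and from 53.8 to 69.1 CPM in KO, and Psme4 from 100 to 134 CPM and from 101 to 110 CPM. Psmf1, an inhibitor of the core, had 31.1 to 37.0 CPM in the controls and 32.3, 27.2, 27.5 and 20.4 CPM in KO 1 to 4. Its log2 fold change was -0.32 (SE 0.119, adjusted p = 0.0530 by edgeR), and it passed without KO 1, at -0.42 (adjusted p = 0.00992 by edgeR).

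Among the chaperones that assemble the particle, Psmg3 and Psmd9 had the lowest values of all members, and both passed in all 21 alternatives. Psmg3 (ENSMUSG00000029551.13, minus strand of chromosome 5 at 139823592 to 139826885) pairs with Psmg4 to build the alpha ring. It had 12.4, 13.6 and 10.7 CPM in WT Cre controls 1 to 3, 14.0, 14.3 and 11.0 CPM in MCS controls 1 to 3, and 10.2, 7.08, 7.25 and 6.20 CPM in KO 1 to 4. KO 1 lay just below the lowest control and the other 3 further down. On the log2 scale the change was -0.73 (SE 0.15, adjusted p = 0.00223 by edgeR). Its partner Psmg4 had 4.92 to 6.68 CPM in the controls and 5.54 to 7.88 CPM in KO, with 0.27 (SE 0.14, adjusted p = 0.160 by edgeR), and passed with library size only at 0.44 (adjusted p = 0.0407 by edgeR).

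Psmd9 (ENSMUSG00000029440.15, plus strand of chromosome 5 at 123169413 to 123250131) helps to assemble the base. It had 36.1, 33.7 and 29.5 CPM in WT Cre controls 1 to 3, 39.4, 39.6 and 46.3 CPM in MCS controls 1 to 3, and 24.2, 23.0, 23.6 and 25.5 CPM in KO 1 to 4. All KO livers lay below all controls, and the MCS controls above the WT Cre controls. The log2 fold change was -0.64 (SE 0.116, adjusted p = 0.000985 by edgeR). This span is that of GENCODE, and the promoter windows of Psmd9 printed above, set by a RefSeq start site, lie inside it. The span overlaps Hpd, a tyrosine-degrading enzyme of hepatocytes, on the other strand. Hpd had 42.9 times as many counts, and stood at 1327 to 1449 CPM in the WT Cre controls, 1966 to 2291 CPM in the MCS controls and 656 to 1133 CPM in KO, with a change of -1.02 on the log2 scale (SE 0.195, adjusted p = 0.00136 by edgeR). The order of the 3 groups was the same in both genes. The kit marked strand, but the strand setting of the counting was not given, so the value of Psmd9 is uncertain, and the part of Hpd in it was not tested. Psmd5, another chaperone of the base, had 35.1 to 43.9 CPM in the controls and 34.0 to 50.6 CPM in KO, with 0.08 (adjusted p = 0.620 by edgeR), which turned to -0.03 without KO 1.

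**Figure D4:**
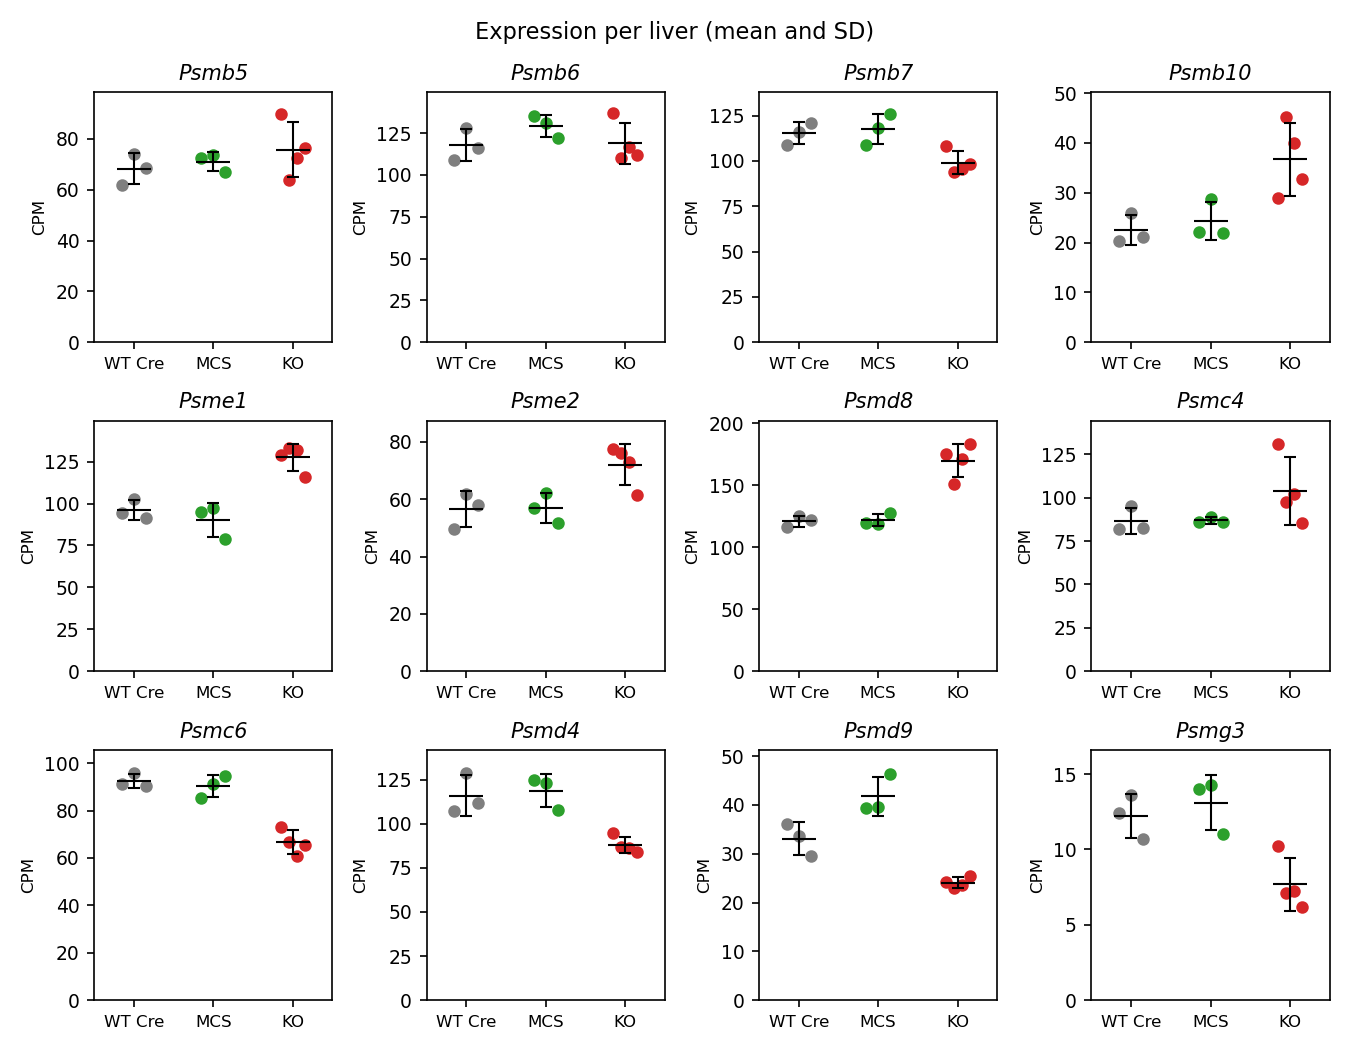
CPM per liver of 12 members in WT Cre controls (grey), MCS controls (green) and KO (red), with group mean and SD, on linear axes from 0. Psmb10, Psme1 and Psmd8 are above every control in all KO livers, Psmc6, Psmd4, Psmd9 and Psmg3 below, and KO 1 is the highest of the KO livers in Psmb5, Psmb6 and Psmc4.

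Ratios between members within a liver do not depend on the scaling. The 6 ratios computed were chosen after the fits had been seen and are descriptions. Psmb10 over Psmb7, inducible over standard subunit in counts per kilobase, was 0.352 to 0.490 in the controls and 0.538, 0.965, 0.840 and 0.665 in KO 1 to 4. Psme1 over the alpha ring subunit Psma5 was 0.998 to 1.31 in the controls and 1.84 to 2.35 in KO, and Psmd8 over its lid neighbour Psmd7 was 1.11 to 1.24 and 1.46 to 1.64. In each of these 3 ratios all KO livers lay above all controls. For Psmb10 over Psmb7 and Psme1 over Psma5 this follows from the single genes and adds nothing to them. All KO livers lay above all controls in Psmb10 and Psme1, and below them in Psmb7 and Psma5. Psma5 also had the lowest log2 fold change of the alpha ring, at -0.37. Psme1 over its partner Psme2 was 1.22 to 1.52 in the controls and 1.33 to 1.5 in KO, and the groups overlapped.

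The subunits left out of the family by the rule moved the same way. Psmb8, which takes the place of Psmb5, had 24.3 to 36.3 CPM in the controls and 73.8 to 82.8 CPM in KO, with a log2 fold change of 1.40 (SE 0.122, adjusted p = 4.84e-06 by edgeR). Psmb8 over Psmb5 was 0.0941 to 0.131 in the controls and 0.233 to 0.345 in KO, without overlap. Psmb9, which takes the place of Psmb6, had 12.6 to 23.5 CPM in the controls and 42.7, 38.7, 33.9 and 20.3 CPM in KO 1 to 4, with 0.98 (SE 0.208, adjusted p = 0.00331 by edgeR). Psmb9 over Psmb6 was 0.0558 to 0.0939 in the controls and 0.0931 to 0.180 in KO, where KO 4 lay within the controls.

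**Figure D5:**
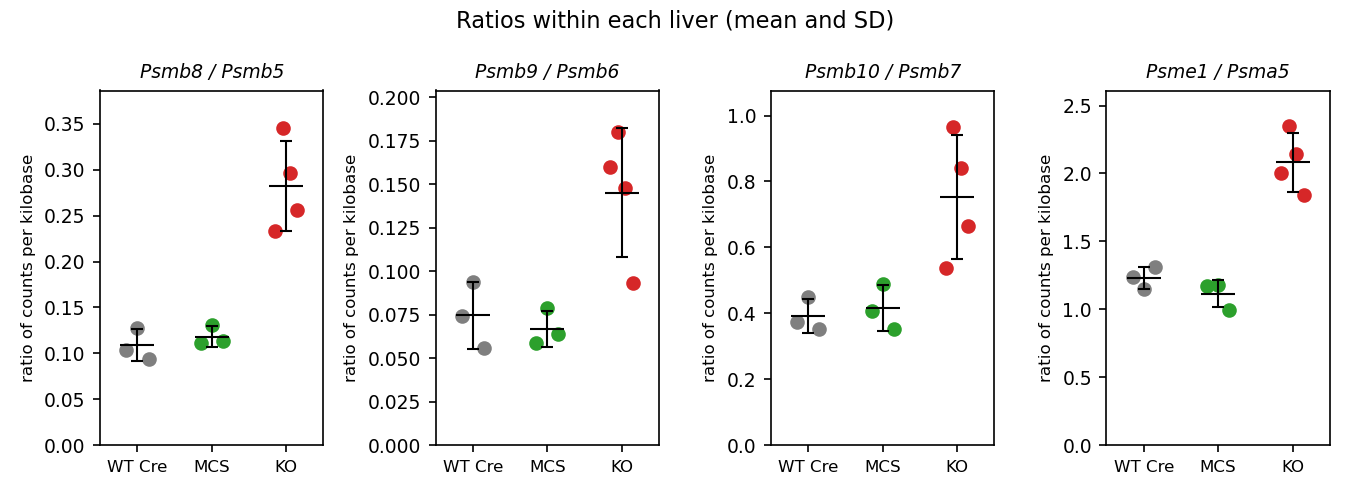
Ratios of counts per kilobase within each liver for Psmb8 over Psmb5, Psmb9 over Psmb6, Psmb10 over Psmb7 and Psme1 over Psma5, with group mean and SD, on linear axes from 0. KO livers lie above all controls in 3 of the panels, and in Psmb9 over Psmb6 KO 4 (0.0931) lies among the controls.

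Of 7 genes listed for the immunoproteasome and peptide loading, 5 were higher and 1 lower in KO. The higher ones were Psmb8, Psmb9, the peptide transporter subunits Tap1 (0.81) and Tap2 (0.51) and the loading factor Tapbp (0.74), and the lower was B2m (-0.31), the light chain of class I molecules. Markers of other cell types were counted in the same way. Over all genes tested, 19.7% were higher and 16.6% lower against all controls. These shares were 15.3% and 13.1% against WT Cre, and 17.3% and 14.8% against MCS. All 11 macrophage markers were higher in KO, with a summed level of 283 to 535 CPM in the controls and 654, 990, 1038 and 1391 CPM in KO 1 to 4. Of the KO livers, KO 1 had the lowest sum and the lowest Psmb10. KO 4 had the highest sum and the lowest Psme1, Psme2, Psmb9 and Tap1. The order of 4 livers cannot tell which cells these transcripts came from. Of 10 lymphocyte markers 7 were higher, with a sum of 11.1 to 15.4 CPM in the controls and 22.1 to 61.8 CPM in KO. Of 14 interferon-stimulated genes 6 were higher and none lower against all controls, with sums of 582 to 1139 CPM and 689 to 1145 CPM. Against WT Cre alone 4 of them were higher and 2 lower, with a median log2 fold change of 0.14, and against MCS 7 were higher and none lower, with 0.87. Of 8 stellate cell markers 7 were higher (180 to 221 against 449 to 719 CPM). Of 7 endothelial markers 2 were higher (180 to 222 against 205 to 347 CPM), and of 6 cholangiocyte markers 1 (40.7 to 61.9 against 53.6 to 73.8 CPM). The endothelial and cholangiocyte counts were near the share of all genes. None of these markers was lower against all controls. Of 10 hepatocyte markers 6 were lower and 1 higher (Trf) against all controls, but 2 were lower against WT Cre and 7 against MCS. The sums were 122557 to 175526 CPM in the controls and 122393 to 133158 CPM in KO. Alb and Trf made up most of them and moved in opposite directions. Alb had 83710 to 118201 CPM in the controls and 61393 to 75941 CPM in KO. Trf had 14762 to 18307 CPM in the controls and 32733 to 42568 CPM in KO. No marker of these lists was at 0 or untested in the series, and the part of these cells in the results for Psmb10, Psme1 and Psme2 was not tested.

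Each kind of control was then compared with KO, which holds either the Cre virus or the floxed alleles constant. Both comparisons share the KO livers. Against the WT Cre controls 4 members were higher, where 15.3% of all genes were, and 12 were lower, where 13.1% were. Against the MCS controls 4 were higher, where 17.3% were, and 17 were lower, where 14.8% were. The medians were -0.17 and -0.24. Psmb10, Psmd8, Psme1 and Psme2 were higher in both, and 9 members were lower in both (Psma1, Psma5, Psmc5, Psmc6, Psmd2, Psmd4, Psmd14, Psmd9 and Psmg3). The share of all genes called in both was not computed. Psme2 was close to the threshold, with an adjusted p = 0.0455 by edgeR against WT Cre and 0.0484 by edgeR against MCS. Psmd1, Psmd11 and Psmf1 were called lower against WT Cre alone, and 8 members against MCS alone. With library size only the lower counts were 5 against WT Cre and 2 against MCS.

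Psmb10 was 0.71 (SE 0.166) against WT Cre and 0.59 (SE 0.165) against MCS, Psmd8 0.49 (SE 0.102) and 0.47 (SE 0.102), and Psme1 0.41 (SE 0.11) and 0.50 (SE 0.11). Psmg3 was -0.68 (SE 0.175) and -0.78 (SE 0.175). Psmd9 was -0.46 (SE 0.105) and -0.79 (SE 0.105), and of these 5 members it had the largest gap between the controls. The count of lower members against WT Cre ran from 4 without WT Cre 2 to 20 without KO 1, with 7 without KO 2 and 7 without KO 3. Against MCS it ran from 7 without KO 2 to 26 without KO 1, with 8 without KO 3, 9 without MCS 1 and 9 without MCS 2. The higher count fell to 2 without WT Cre 1 or 3 against WT Cre, and to 2 without MCS 1 or 3 against MCS. For these fits with a liver left out, no share of all genes was computed.

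Between the WT Cre and MCS controls no member passed in either direction by edgeR, where 0.927% of all genes did, and 1 member, Psmd9, had an unadjusted p under 0.05. DESeq2 and limma-voom also called none. Psmd9 was also the lowest, at -0.33 (SE 0.113, adjusted p = 0.257 by edgeR), and the highest was Psmd5 at 0.26 (adjusted p = 0.533 by edgeR). The median over members was -0.03, and 0.11 with library size only.

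Other genes of the pathway were counted from lists. Against all controls 19.7% of all genes tested were higher and 16.6% lower. These shares were 15.3% and 13.1% against WT Cre, and 17.3% and 14.8% against MCS. Of 8 further subunits, bound deubiquitinases and assembly factors, 6 were lower with TMM and none was higher against all controls, with a median log2 fold change of -0.31. Against WT Cre 3 were lower and against MCS 6. Usp14, a deubiquitinase that docks on the base, had 41.8 to 51.7 CPM in the controls and 27.9 to 31.6 CPM in KO, with -0.63 (SE 0.0882, adjusted p = 0.000151 by edgeR), and passed in all 21 alternatives. Adrm1, a ubiquitin receptor of the base, had 62.8 to 74.0 CPM in the controls and 51.9 to 58.9 CPM in KO, with -0.31 (adjusted p = 0.0139 by edgeR, or 0.0555 without KO 2 and 0.0512 without KO 3). The call of Adrm1 was lost in 6 of 21 alternatives, library size only and FPKM values among them. Pomp, which drives assembly of the beta ring, was -0.32 (adjusted p = 0.0362 by edgeR), and was lost in 14 of 21 alternatives, library size only among them. Sem1, a small lid subunit, was -0.30 (adjusted p = 0.0666 by edgeR), and passed without KO 1 at -0.41 (adjusted p = 0.00969 by edgeR).

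Of 7 regulators, 4 were lower and none was higher against all controls, 3 were lower against WT Cre, and 3 were lower and 1 higher against MCS. Nfe2l1, the factor that raises proteasome genes, had 121 to 142 CPM in the controls and 98.8 to 124 CPM in KO. Its value of -0.29 (SE 0.0975, adjusted p = 0.0350 by edgeR) was lost in 13 of 21 alternatives, library size only and 6 omitted livers among them (WT Cre 1, 2 and 3 and KO 2, 3 and 4), where the edgeR adjusted p ran up to 0.127. Syvn1, a ubiquitin ligase of the endoplasmic reticulum, was -0.54 (SE 0.152, adjusted p = 0.0143 by edgeR), and -0.74 against MCS (adjusted p = 0.00165 by edgeR) but -0.30 against WT Cre (adjusted p = 0.124 by edgeR). Against all controls, the call of Syvn1 was lost with library size only and with FPKM values. Nfe2l2, a transcription factor of the response to oxidative stress, is named after its values were seen. It had 158, 133 and 141 CPM in WT Cre controls 1 to 3, 78.4, 62.4 and 76.5 CPM in MCS controls 1 to 3, and 151, 174, 175 and 136 CPM in KO 1 to 4, so KO lay with the WT Cre controls. The WT Cre controls were higher than the MCS controls by 0.99 on the log2 scale (SE 0.139, adjusted p = 0.00473 by edgeR).

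Ubb, which encodes a chain of ubiquitin units, had 188 to 303 CPM in the controls and 346, 317, 289 and 342 CPM in KO 1 to 4, with 0.55 (SE 0.139, adjusted p = 0.00795 by edgeR). It passed against WT Cre, at 0.71 (adjusted p = 0.00429 by edgeR), and not against MCS, at 0.40 (adjusted p = 0.0539 by edgeR). Of 11 ubiquitin-activating enzymes and shuttle receptors 2 were higher, near the share of all genes given above, and 5 were lower. Ubqln2, which ferries tagged proteins to the proteasome, had 16.6 to 21.0 CPM in the controls and 9.22 to 10.2 CPM in KO, with -0.96 (SE 0.107, adjusted p = 3.05e-05 by edgeR), and passed in all 21 alternatives.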

How the data were processed

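Per the study's methods and the submitters' processing notes, reads were trimmed and aligned with STAR to mm10. The methods name HOMER for the counts, whereas the notes list HTSeq and Cufflinks. The authors deposited raw counts per gene, and a second table of FPKM values, for the same 10 samples. Columns of KO were assigned by the replicate in each title. Control columns carry only a number, and 1 to 3 (WT Cre) and 4 to 6 (MCS) were assigned by the same number in the library names, on which all values for one kind of control rest.

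Genes with at least 10 counts over all samples were tested in edgeR 4.0.16 under R 4.3.3 by quasi-likelihood (TMM, robust, two-sided, Benjamini-Hochberg over 22449 genes), for KO against all 6 controls in a fit of 2 groups and for each kind of control in a fit of 3. The study itself used DESeq2, here an alternative (DESeq2 1.42.0), with limma 3.58.1 on voom weights and on log2(FPKM + 1) and log2(FPKM + 0.1). The SE is the log2 fold change over the square root of F. Nothing says whether livers were processed apart, so p-values cover the spread between these samples. Replicates differed by 10.3 to 96.7 times the sampling noise.

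Members, groups and lists were chosen with earlier results of these data known. Genes were named by rule: in each group the 2 highest and 2 lowest log2 fold changes, Psmb5, Psmb6, Psmb7, Psmb10, all activators, Psmb8, Psmb9, Nfe2l1, Pomp, Adrm1, Sem1, Ubb, and the gene of each list with the largest change that passed. Some genes that the rule names are not reported here. Reads of genes overlapping a member (9 members on the same strand, 20 on either) may be shared, since the strand setting of the counting is not given in the sources used here. Coordinates are from GENCODE M21 (mm10).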

Additional observations from a re-analysis of the deposited data

Results flagged for a closer look

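Of 90 groups of values checked (the 4 KO livers and the 6 controls, in each of 45 named genes), 2 held a liver far from the others, and chance flags about 1 in 20. Psmb3 stood at 85.2 CPM in KO 1, against 62.3 CPM in the nearest KO liver. Syvn1 stood at 153 CPM in MCS 3, against 107 CPM in the nearest control. KO 1 was the shallowest library, and its part in the value of Psmb3 was not tested.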

How the results depend on the processing

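With library size only, members higher and lower were 7 and 3 against all controls (median log2 fold change -0.0209), 5 were lower against WT Cre (-0.0624), 9 higher and 2 lower against MCS (0.0061), and the median of WT Cre against MCS was 0.112. Without the 50 most abundant genes in the library size, 5 were lower against all controls (-0.0603), 7 lower against WT Cre (-0.0865), 7 higher and 2 lower against MCS (-0.0483), with 0.0783 for WT Cre against MCS. On log2(FPKM + 1), 7 were higher and 2 lower (-0.0338), 4 lower against WT Cre (-0.0774), 8 higher and 2 lower against MCS (0.0286), with 0.122 for WT Cre against MCS. On log2(FPKM + 0.1) the counts were the same, with medians of -0.0350, -0.0816, 0.0288 and 0.123. With no minimum count, 13 were lower against all controls and 9 against MCS, and with only the groups compared 9 were lower against MCS. Shares of all genes called were computed only for the main fits and, against all controls, for library size only and for calls under all 5 scalings. The other counts in this section have no background beside them.

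Leaving out each liver in turn gave 4 to 5 members higher and 11 to 21 lower against all controls (median -0.267 to -0.164), 2 to 4 and 4 to 20 against WT Cre (-0.210 to -0.133), 2 to 4 and 7 to 26 against MCS (-0.285 to -0.209), and none between the controls (-0.0846 to 0.0055). The replicate block gave 10 lower against all controls and 11 against MCS. Same-numbered samples share only a number: their deviations correlated by -0.0387 to 0.111 over 9 pairs, 1 of them over 0.1. DESeq2 called 4 higher and 20 lower against all controls, limma-voom 4 and 21. Apart from the shift of all genes with the scaling, the cause was not tested.

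Of 945 values (45 named genes, 21 alternatives), 812 kept their direction and side of the threshold, 97 lost and 16 gained a call, and 20 changed sign, none of them in the 32 genes called. The sign changed in Psma3 (0.0380 with library size only, 0.0813 and 0.0820 with FPKM pseudocounts of 1 and 0.1), Psma6 (0.0390, 0.0710 and 0.0718), Psmb6 (0.122 with library size only, 0.0821 without the top 50 genes, 0.172 and 0.173 with FPKM), Psme3 (0.0903, 0.0515, 0.0600 and 0.0624) and Psme4 (0.0835, 0.0443, 0.0852 and 0.0916). Over the livers left out, Psmd13 ran from -0.0034 to 0.0761 and Psmd5 from -0.0298 to 0.164, both negative without KO 1. Of the 32 called genes, 17 kept their call under every alternative. Depth limits Psma8 most, at 144 counts in all.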
